A study of Homo sapiens with 12 samples.

Results

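The genes described here are the 47 collagen, laminin, integrin and lysyl oxidase genes, of 12756 genes tested, whose symbols follow the naming pattern of those 4 families. They comprise 17 collagen chains, 11 laminin subunits, 15 integrin subunits (10 alpha and 5 beta) and 4 lysyl oxidases. They were measured by sequencing of polyadenylated RNA in HCT116, an established line from a human colorectal carcinoma, in 12 libraries. There were 3 labelled replicates each of AGO2 knockout (KO) cells, ANKRD52 KO cells, cells lacking both ANKRD52 and CSNK1A1 (labelled ANKRD52;CSNK1A1 KO and called the double KO here), and parental cells. All groups were harvested 48 hours after plating. AGO2 is an Argonaute protein that binds microRNAs and guides silencing of their target messages. ANKRD52 belongs to the PP6 phosphatase as a regulatory subunit, and CSNK1A1 encodes casein kinase 1 alpha, which also takes part in the destruction of beta-catenin. The study's title concerns phosphorylation of Argonaute and silencing by microRNAs, so each comparison asks which messages differed once a factor of that system was lost. The labels do not say whether a knockout line was 1 clone, nor whether replicates were separate cultures, and the p-values therefore reflect spread between libraries that may be technical.

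Epithelial cells rest on a basement membrane, a sheet built from laminin trimers (an alpha, a beta and a gamma chain) and a network of type IV collagen. Integrins are alpha-beta dimers in the cell membrane that bind laminin, collagen or fibronectin outside and connect to the cytoskeleton inside. Lysyl oxidases cross-link secreted collagen. Laminin-332 and its receptor, the integrin alpha6-beta4, form hemidesmosomes, anchors that tie keratin filaments to the basement membrane. In skin these also contain collagen XVII, while those of gut epithelium are simpler. Collagen and laminin messages are well known targets of the microRNA family miR-29.

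All values rest on the authors' edgeR tables of each knockout against parental cells. A log2 fold change above 0 means a higher level in the knockout, and a gene was called changed where the authors' adjusted p, over all 12756 genes, was under 0.05. Group levels in CPM, reads of a gene scaled to library size, were implied from the mean level and the 3 fold changes, and are not corrected for gene length unless given per kilobase. The tables hold no values of single libraries, so no value per library can be shown, the depth is unknown and no spread between replicates is given. A standard error was rebuilt from each fold change and its likelihood ratio, and is approximate. The targeted genes were checked first. In the authors' deposited table AGO2 had a log2 fold change of -1.07 in the AGO2 KO (adjusted p = 0.0477). In the authors' deposited tables ANKRD52 stood at 0.03 in the ANKRD52 KO (adjusted p = 0.915) and at -0.65 in the double KO (adjusted p = 2.32e-05). Its RNA level therefore does not check the label of the ANKRD52 KO. ANKRD52 was called higher in the AGO2 KO in the authors' deposited table, at 0.85 (adjusted p = 8.78e-07). CSNK1A1 stood at -2.42 in the double KO in the authors' deposited table (adjusted p = 1.71e-10).

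The cell type was checked against its markers. All 7 colorectal epithelial markers (EPCAM, KRT8, KRT18, KRT19, CDH1, VIL1, CDX2) were among the genes tested, with summed implied levels of 3421 CPM in the AGO2 KO, 3182 CPM in the ANKRD52 KO, 8697 CPM in the double KO and 3316 CPM in parental cells. Of these, 6 rose in the double KO in the authors' deposited table, while EPCAM (-0.81) and CDH1 (-1.33) fell in the ANKRD52 KO. Of 9 fibroblast markers only COL1A1 was among the genes tested, at 12.4, 12.4, 14.1 and 11.9 CPM in the AGO2 KO, ANKRD52 KO, double KO and parental cells. Of 8 leukocyte markers only LYZ was tested, with an implied level of 8.63 CPM in the double KO and 0.0788 CPM in parental cells. Of 4 endothelial markers VWF and KDR were tested, and summed to 5.02 CPM in the double KO and 1.69 CPM in parental cells. LYZ, VWF and KDR were called higher in the double KO in the authors' deposited table. The part of these markers in the results below was not tested. In RNA from whole cultures, fewer cells with a message and less message per cell cannot be told apart.

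Few of the 47 genes changed in the AGO2 KO, more in the ANKRD52 KO and most in the double KO, the same order as over all genes. In the AGO2 KO, 5 rose and 1 fell in the authors' deposited table, where 6.10% of all genes were called, 3.38% higher and 2.72% lower. In the ANKRD52 KO, 11 rose and 3 fell, against 13.7% of all genes called, 7.62% higher and 6.04% lower. In the double KO, 26 rose and 3 fell, against 43.0% of all genes called, 22.9% higher and 20.1% lower. The called share of the 47 genes was thus 12.8%, 29.8% and 61.7% in the AGO2, ANKRD52 and double knockouts. The calls leaned towards higher levels most in the double KO. Their median log2 fold change was 0.16, 0.20 and 0.64 in these 3 knockouts, while the median of all genes was 0.00, 0.00 and 0.01. All 3 comparisons share the parental libraries. Of the 47 genes, 33 were called at least once, 1 (COL4A5) in every comparison, and 14 never: COL1A1, COL4A4, COL5A2, COL12A1, COL18A1, LAMA2, LAMB2, LAMC3, ITGA2B, ITGA3, ITGA9, ITGAE, ITGAV and ITGB8. With an F distribution in place of the authors' chi-square, which allows for error in the estimated spread, no member was called in the AGO2 KO or in the ANKRD52 KO (0 each, with 15 and 17 at unadjusted p under 0.05), and 26 were called in the double KO. The calls in the AGO2 and ANKRD52 knockouts therefore hold under the authors' test and not under that reading. The share of all genes called under that reading is not given here, so these counts show nothing particular to the 47 genes.

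**Figure D1:**
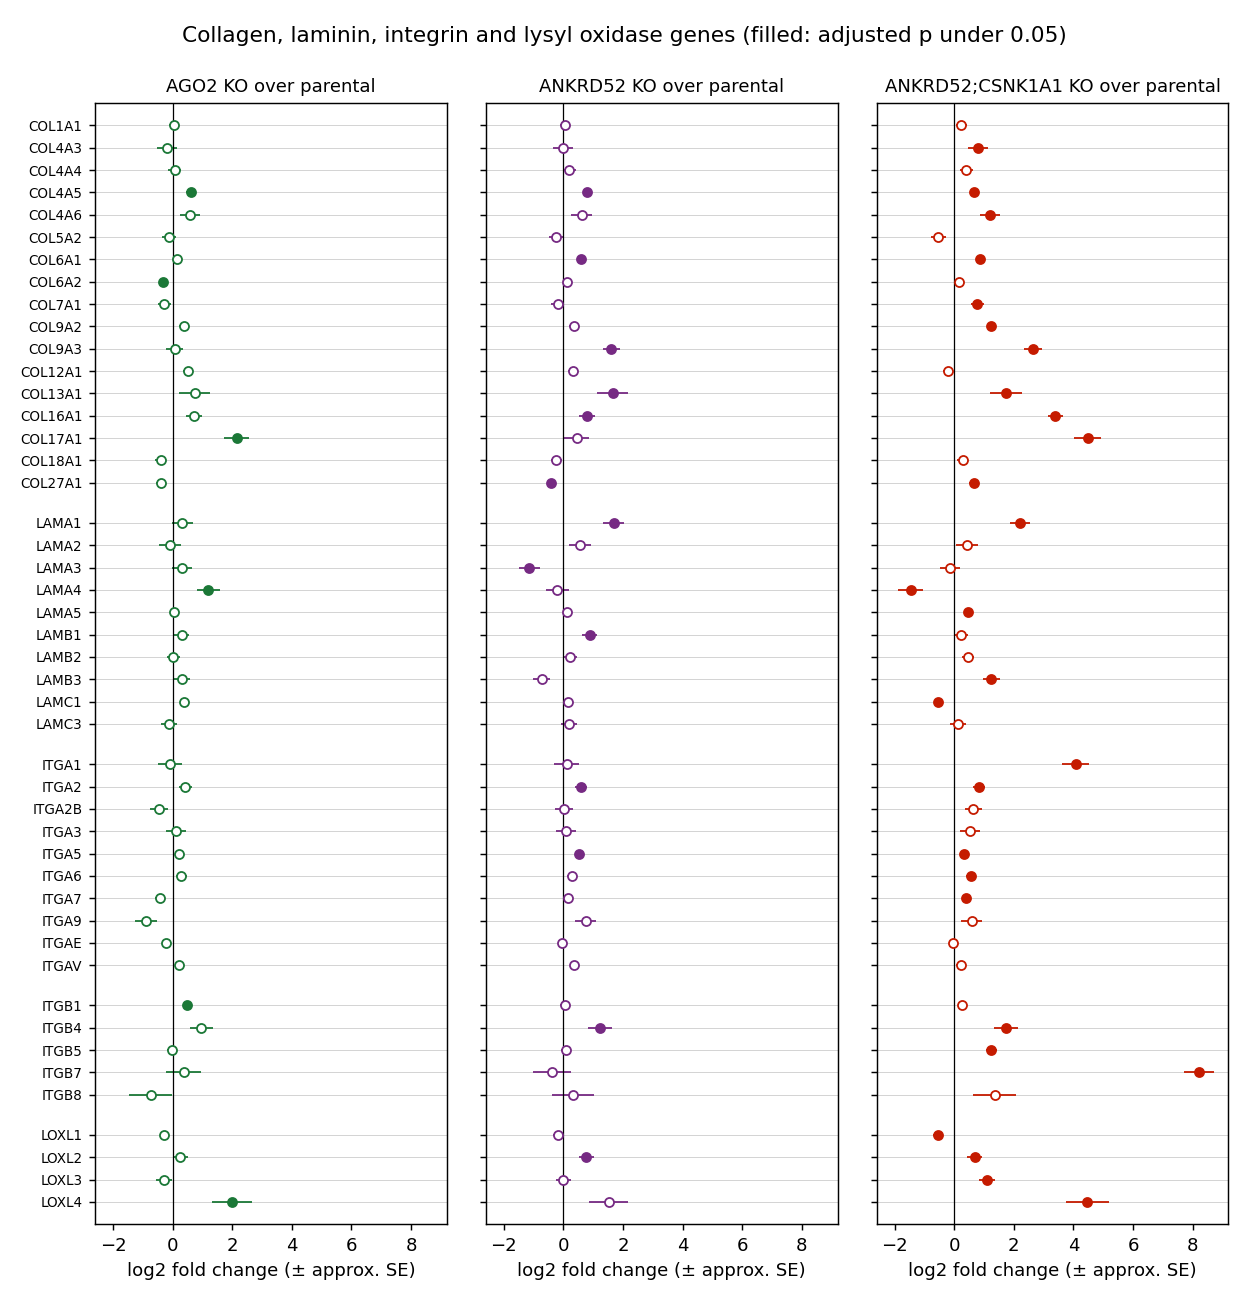
Log2 fold change over parental cells (x axis) of the genes (rows, grouped by family) in panels for the AGO2 KO, ANKRD52 KO and double KO (ANKRD52;CSNK1A1 KO); bars are ± 1 approximate standard error and filled points were called at adjusted p under 0.05. Filled points are fewest in the AGO2 KO and most in the double KO, the same order as over all genes. ITGB7 stands farthest from 0, at 8.20 in the double KO.

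**Figure D2:**
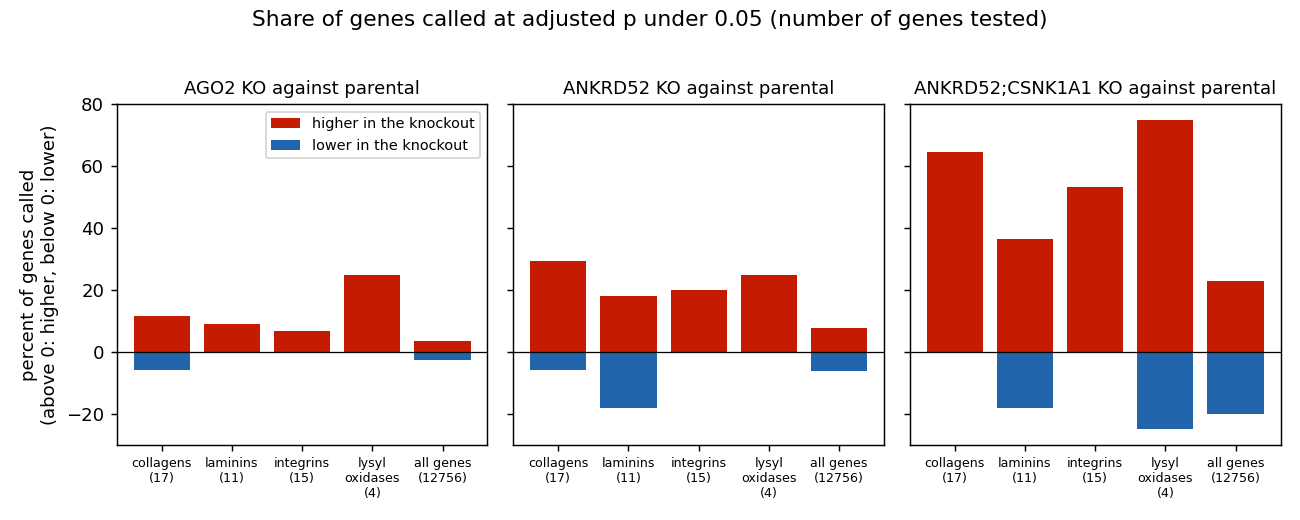
Percent of genes called higher (above 0) and lower (below 0) in each knockout against parental cells, for collagens, laminins, integrins, lysyl oxidases and all genes, with the number of genes under each bar. In the double KO, 11 of 17 collagens and 8 of 15 integrins were called higher and none of either family lower, while 4 laminins rose and 2 fell.

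The laminin subunits did not move as 1 group. LAMA3 and LAMB3, chains of laminin-332, the main laminin under epithelial hemidesmosomes, were lowest in the ANKRD52 KO. LAMA3 had implied levels of 11.6 CPM in the AGO2 KO, 4.18 CPM in the ANKRD52 KO, 8.29 CPM in the double KO and 9.22 CPM in parental cells. LAMB3 had implied levels of 42.8, 20.8, 81.6 and 34.4 CPM in the AGO2 KO, ANKRD52 KO, double KO and parental cells. LAMB3 was therefore highest in the double KO, and LAMA3 was highest in the AGO2 KO. In the authors' deposited table LAMA3 had a log2 fold change of -1.14 (standard error 0.34, adjusted p = 0.0122) in the ANKRD52 KO, where it fell. LAMB3 had -0.72 there and missed the threshold (adjusted p = 0.0675). In the double KO, LAMB3 rose by 1.25 (adjusted p = 7.95e-05) in the authors' deposited table, while LAMA3 stood at -0.15 (adjusted p = 0.739). In the AGO2 KO neither was called in the authors' deposited table, with 0.33 for LAMA3 (adjusted p = 0.612) and 0.32 for LAMB3 (adjusted p = 0.545). The fall of LAMA3 in the ANKRD52 KO came with that of EPCAM and CDH1 given above, and whether these moves were linked was not tested.

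The knockouts were also set against each other by the difference of their fold changes, in which the parental level drops out, with an approximate test over 11876 genes. LAMA3 and LAMB3 were both higher in the double KO than in the ANKRD52 KO, by 0.99 for LAMA3 (approximate standard error 0.34, adjusted p = 0.0142) and 1.97 for LAMB3 (0.28, adjusted p = 1.04e-10). Both were lower in the ANKRD52 KO than in the AGO2 KO, with differences of -1.47 for LAMA3 (adjusted p = 0.000868) and -1.04 for LAMB3 (adjusted p = 0.00605). In these comparisons 34.5% and 9.43% of all genes were called. With a t distribution in place of the normal one, 0 of the 44 members tested were called between the ANKRD52 KO and the AGO2 KO (13 at unadjusted p under 0.05). The share of all genes called with that distribution is not given here.

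The promoters of LAMA3 and LAMB3 are shown because both chains were lower in the ANKRD52 KO than in either other knockout. Between the double KO and the AGO2 KO they differed in sign, with -0.49 for LAMA3 (adjusted p = 0.243) and 0.93 for LAMB3 (adjusted p = 0.00394) in the approximate test. The promoters are RefSeq sequences (GRCh38.p14), from 250 bases before to 50 bases after a listed start, and 35 of the 47 genes had an entry. Only the first entry of each gene was used, which need not be its outermost start. Other starts of a gene were not looked at. Capitals mark matches, on either strand, to TGANTCA, the sequence bound by the AP-1 factors, or to CACCTG, an E-box variant bound by ZEB and SNAIL repressors.
LAMA3 promoter, chr18:23872770-23873069, plus strand: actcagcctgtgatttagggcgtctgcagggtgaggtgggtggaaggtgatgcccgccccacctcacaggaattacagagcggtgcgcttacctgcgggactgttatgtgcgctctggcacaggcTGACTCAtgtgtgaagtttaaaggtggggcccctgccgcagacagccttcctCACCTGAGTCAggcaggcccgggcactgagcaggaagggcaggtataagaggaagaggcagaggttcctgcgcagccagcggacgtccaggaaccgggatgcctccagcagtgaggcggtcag
LAMB3 promoter, chr1:209652376-209652675, minus strand: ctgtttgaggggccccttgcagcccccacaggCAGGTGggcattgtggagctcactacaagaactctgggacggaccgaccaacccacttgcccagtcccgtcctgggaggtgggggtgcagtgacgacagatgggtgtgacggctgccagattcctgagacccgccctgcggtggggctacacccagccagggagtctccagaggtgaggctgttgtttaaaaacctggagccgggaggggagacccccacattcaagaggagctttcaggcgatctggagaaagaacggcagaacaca
The LAMA3 window held TGANTCA 125 and 69 bases before the start and CACCTG 73 bases before it, where the last match overlaps the second TGANTCA. The LAMB3 window held CACCTG 218 bases before the start. TGANTCA occurred in 2 of 35 member promoters (5.71%) and in 4.39% of the 9319 promoters of tested genes, and CACCTG in 9 (25.7%) and 18.7%. CTTTGA, the core bound by TCF and LEF factors, occurred in 5 (14.3%) and 8.21%, and CATTCC, bound by TEAD factors, in 5 (14.3%) and 10.8%. These are matches of letters in a window and say nothing of binding.

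LAMA1, LAMB1 and LAMC1, which together form the laminin of embryonic basement membranes, moved apart from each other. LAMA1, the alpha chain, rose by 1.68 in the ANKRD52 KO (standard error 0.34, adjusted p = 6.76e-05) and by 2.20 in the double KO (adjusted p = 2.85e-09) in the authors' deposited tables, with low implied levels of 1.36 CPM in the AGO2 KO, 3.47 CPM in the ANKRD52 KO, 4.97 CPM in the double KO and 1.08 CPM in parental cells. LAMB1, a beta chain shared by several laminins, rose by 0.89 in the ANKRD52 KO (adjusted p = 0.0064) in the authors' deposited table and was not called in the double KO (0.23). LAMC1, the gamma chain of most laminins, fell by 0.53 in the double KO (adjusted p = 0.00122) in the authors' deposited table, with implied levels of 211, 180, 111 and 161 CPM in the AGO2 KO, ANKRD52 KO, double KO and parental cells. In the double KO, LAMA1 thus rose where LAMC1 fell. LAMB1 and LAMC1 were lower in the double KO than in the ANKRD52 KO, with differences of -0.66 (adjusted p = 0.0271) and -0.69 (adjusted p = 1.9e-05) in the approximate test.

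LAMA4, an alpha chain best known from blood vessels and muscle, was called in opposite directions in a pair of knockouts. Its implied levels were 5.09 CPM in the AGO2 KO, 1.91 CPM in the ANKRD52 KO, 0.801 CPM in the double KO and 2.21 CPM in parental cells. It rose by 1.20 in the AGO2 KO (standard error 0.38, adjusted p = 0.0348) and fell by 1.46 in the double KO (0.41, adjusted p = 0.00157) in the authors' deposited tables. The difference of the double KO from the AGO2 KO, -2.67, was past the threshold of the approximate test (adjusted p = 3.83e-10), in which 42.6% of all genes were called. LAMA5, the alpha chain of laminins in mature gut epithelium, rose by 0.46 in the double KO in the authors' deposited table (adjusted p = 0.000182). LAMA2, LAMB2 and LAMC3 had values from -0.11 to 0.57 over the authors' deposited tables, and none was called.

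**Figure D3:**
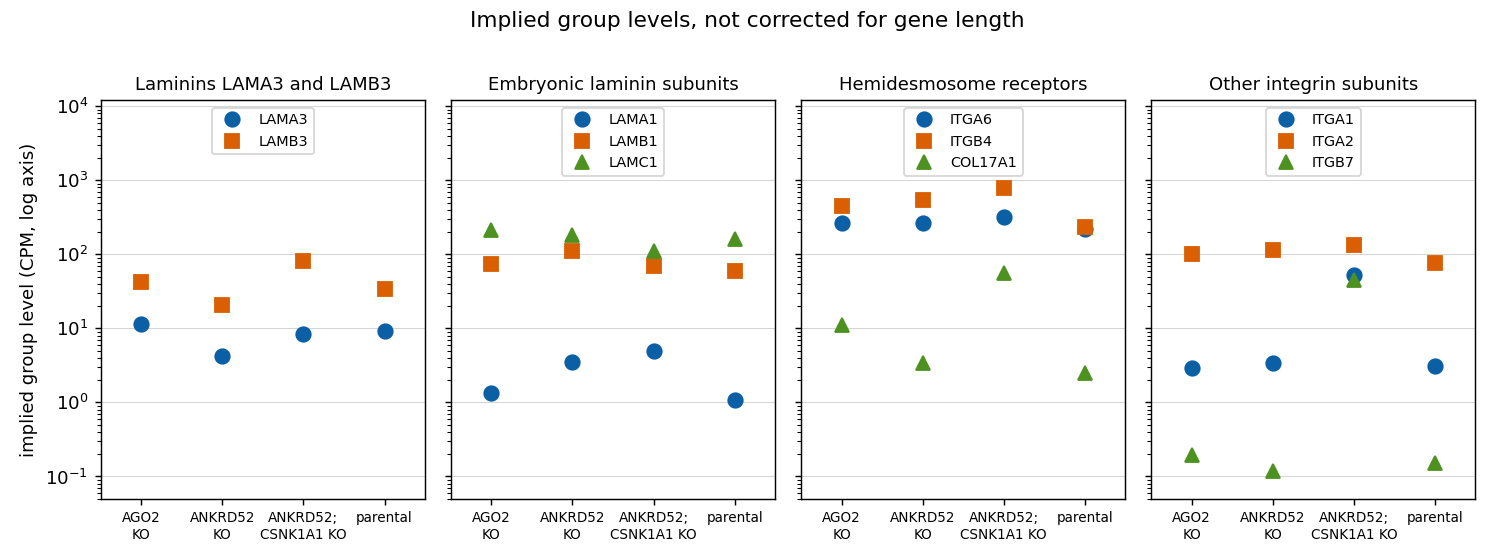
Implied group level in CPM (log axis, not corrected for gene length) of LAMA3 and LAMB3, the chains of the embryonic laminin, hemidesmosome receptors and other integrin subunits in the AGO2 KO, ANKRD52 KO, double KO and parental cells; each point is 1 gene in 1 group and no error is available. The LAMA3 and LAMB3 points dip in the ANKRD52 KO, and the ITGB7 point stands at 44.9 CPM in the double KO against 0.117 to 0.196 CPM elsewhere.

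Among the receptors of the hemidesmosome, ITGB4 and COL17A1 had larger fold changes than ITGA6 in the double KO. ITGB4, the laminin-332 receptor's beta chain, had implied levels of 456 CPM in the AGO2 KO, 543 CPM in the ANKRD52 KO, 778 CPM in the double KO and 233 CPM in parental cells. It rose by 1.22 in the ANKRD52 KO (standard error 0.40, adjusted p = 0.0234) and by 1.74 in the double KO (adjusted p = 0.00011) in the authors' deposited tables, and stood at 0.97 in the AGO2 KO (adjusted p = 0.123). All 3 knockouts thus lay above parental cells, and 2 of the 3 passed the threshold. ITGA6, its alpha partner, rose by 0.55 in the double KO (adjusted p = 0.00531) in the authors' deposited table, with implied levels of 268, 266, 320 and 218 CPM in the AGO2 KO, ANKRD52 KO, double KO and parental cells. Per kilobase of exon, ITGB4 stood at 126 CPM and ITGA6 at 54.9 CPM in the double KO, against 37.7 and 37.4 CPM in parental cells. The double KO and the ANKRD52 KO did not differ past the threshold for ITGB4 (difference 0.52, 95% interval -0.27 to 1.31) or ITGA6 (0.27, 95% interval -0.07 to 0.61).

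COL17A1, the transmembrane collagen of hemidesmosomes, showed the largest rise among the collagens in both the AGO2 KO and the double KO. Its implied levels were 11.0 CPM in the AGO2 KO, 3.39 CPM in the ANKRD52 KO, 55.2 CPM in the double KO and 2.49 CPM in parental cells. It rose 4.43-fold in the AGO2 KO (log2 2.15, standard error 0.42, adjusted p = 0.000104) and 22.2-fold in the double KO (log2 4.47, adjusted p = 1.91e-20) in the authors' deposited tables, but stood at 0.45 in the ANKRD52 KO (adjusted p = 0.531). The ANKRD52 KO was lower than the AGO2 KO (difference -1.70, adjusted p = 0.00193), and the double KO was higher than the ANKRD52 KO by 4.03 (adjusted p = 2.3e-18), in the approximate test. For COL17A1, as for LAMA3 and LAMB3, the implied level in the ANKRD52 KO lay under those of the AGO2 KO and the double KO. Members outside the hemidesmosome, such as LOXL4, had this order too, while ITGB4 did not. In the ANKRD52 KO, COL17A1 stood above its parental level, and LAMA3 and LAMB3 stood below theirs. Of 5 other hemidesmosome genes listed (PLEC, DST, CD151, KRT5 and KRT14), 1 was called in the ANKRD52 KO and 2 in the double KO. These shares, 20.0% and 40.0%, stood against 13.7% and 43.0% of all genes. PLEC, DST and CD151 had -0.03, 0.06 and -0.02 in the double KO and were called in no knockout. KRT5, a basal keratin, rose by 3.58 in the ANKRD52 KO in the authors' deposited table (adjusted p = 3.7e-06). It rose by 4.12 in the double KO in the authors' deposited table (adjusted p = 2.08e-09). Its implied levels were low, at 1.13 CPM in the ANKRD52 KO, 1.65 CPM in the double KO and 0.0946 CPM in parental cells. KRT14, the partner of KRT5, was called higher in the double KO, at an implied 14.3 CPM, while in parental cells it lay under the level that 3 reads in a group would give. KRT14 has near-identical relatives, so its reads are uncertain.

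The largest change of any of the 47 genes was that of ITGB7, a beta subunit best known on lymphocytes that home to the gut. It was almost undetected outside the double KO, with implied levels of 0.196 CPM in the AGO2 KO, 0.117 CPM in the ANKRD52 KO, 44.9 CPM in the double KO and 0.152 CPM in parental cells. It rose 295-fold over parental cells (log2 8.20, standard error 0.51, adjusted p = 2.69e-55) in the authors' deposited table. ITGB7 pairs with ITGAE or with ITGA4, and ITGA4 was not among the genes tested. ITGAE stood at -0.05 in the double KO in the authors' deposited table (adjusted p = 0.796), at an implied 10.5 CPM there and 10.8 CPM in parental cells. Per kilobase, ITGB7 reached 15.6 CPM in the double KO, where ITGB1, the most abundant subunit, was at 172 CPM. The rise of ITGB7 came with that of LYZ, and of the 8 leukocyte markers listed only LYZ was tested. In the double KO 6 of the 7 colorectal epithelial markers rose as well. Whether these moves were linked was not tested.

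Of 4 collagen-binding alpha subunits listed, the 2 tested both rose in the double KO, by very different amounts. ITGA1 rose 16.8-fold (log2 4.07, standard error 0.45, adjusted p = 7.71e-18) in the authors' deposited table, with implied levels of 2.94 CPM in the AGO2 KO, 3.37 CPM in the ANKRD52 KO, 52.6 CPM in the double KO and 3.13 CPM in parental cells. ITGA2 rose by 0.83 (adjusted p = 0.000331) in the double KO and by 0.58 in the ANKRD52 KO (adjusted p = 0.0389) in the authors' deposited tables. Its implied levels were 102, 113, 134 and 75.5 CPM in the AGO2 KO, ANKRD52 KO, double KO and parental cells. ITGA1 was thus close to its parental level in the AGO2 and ANKRD52 knockouts, and ITGA2 was above it in all 3. Their common partner ITGB1 rose by 0.50 in the AGO2 KO (standard error 0.15, adjusted p = 0.0237) in the authors' deposited table, and its values in the ANKRD52 KO (0.04) and the double KO (0.27) were not called.

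Among receptors for fibronectin and other RGD ligands, ITGA5, the alpha subunit of the main fibronectin receptor, had the smallest p in the ANKRD52 KO. It rose by 0.51 there (standard error 0.08, adjusted p = 8.87e-08) and by 0.32 in the double KO (adjusted p = 0.000435) in the authors' deposited tables, and stood at 0.23 in the AGO2 KO (adjusted p = 0.0644). Its ligand FN1, fibronectin, rose by 0.84 in the ANKRD52 KO and by 0.97 in the double KO in the authors' deposited tables. ITGB5, which pairs with ITGAV to bind vitronectin, rose by 1.25 in the double KO (adjusted p = 1.64e-11) in the authors' deposited table, at 77.8, 83.4, 186 and 78.4 CPM in the AGO2 KO, ANKRD52 KO, double KO and parental cells. Its partner ITGAV had 0.23, 0.36 and 0.21 in the 3 knockouts in the authors' deposited tables, none called. ITGB8, another partner of ITGAV, stood at 1.35 in the double KO with a standard error of 0.71 (adjusted p = 0.115). The laminin-binding ITGA7 rose by 0.41 in the double KO (adjusted p = 0.0199) in the authors' deposited table, and ITGA3 had 0.54 (adjusted p = 0.187). No integrin fell in any comparison under the authors' edgeR test (2, 0 and 0 lower at unadjusted p under 0.05 in the AGO2, ANKRD52 and double knockouts), and ITGA9, at low levels, had -0.90 in the AGO2 KO (adjusted p = 0.122) in the authors' deposited table.

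Among the collagens of the basement membrane, COL4A5, a chain of the type IV network, rose in every knockout. Its log2 fold change was 0.61 in the AGO2 KO (standard error 0.16, adjusted p = 0.00836), 0.81 in the ANKRD52 KO (adjusted p = 3.84e-05) and 0.67 in the double KO (adjusted p = 0.000165) in the authors' deposited tables. Implied levels were 21.1, 24.3, 22.1 and 13.9 CPM in the AGO2 KO, ANKRD52 KO, double KO and parental cells. The 3 knockouts lay closer to each other than to parental cells. COL4A6, its neighbour and partner chain, rose by 1.21 in the double KO (adjusted p = 0.00126) and COL4A3 by 0.79 (adjusted p = 0.0382) in the authors' deposited table, while COL4A4 was not called (0.41). COL4A1 and COL4A2, the remaining type IV chains, were not among the genes tested. COL7A1, the anchoring fibril collagen beneath hemidesmosomes, rose by 0.77 (adjusted p = 0.00126) in the double KO in the authors' deposited table, with implied levels of 3.76, 4.04, 7.84 and 4.58 CPM in the AGO2 KO, ANKRD52 KO, double KO and parental cells. COL18A1, the basement membrane collagen from which endostatin is cut, was not called against parental cells, but was higher in the double KO than in the ANKRD52 KO by 0.51 in the approximate test.

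Of the 4 fibril-associated collagens tested, 2 rose in the ANKRD52 KO, against 7.62% of all genes, and 3 in the double KO, against 22.9%. COL9A3, a chain of type IX collagen, had implied levels of 9.30 CPM in the AGO2 KO, 26.9 CPM in the ANKRD52 KO, 55.1 CPM in the double KO and 8.85 CPM in parental cells. It rose 3.04-fold in the ANKRD52 KO (log2 1.60, standard error 0.29, adjusted p = 4.35e-06) and 6.22-fold in the double KO (log2 2.64, adjusted p = 4.71e-17) in the authors' deposited tables. The step between those knockouts, 1.04, was past the threshold of the approximate test (adjusted p = 0.00229), as was the difference of the ANKRD52 KO from the AGO2 KO, 1.53 (adjusted p = 1.84e-05). COL9A3 was therefore near its parental level in the AGO2 KO, higher in the ANKRD52 KO and higher again in the double KO. COL9A2, its partner chain, rose by 1.25 in the double KO (adjusted p = 6.68e-14) in the authors' deposited table. COL16A1, which links fibrils and basement membranes, rose 10.5-fold there (log2 3.39, adjusted p = 4.79e-39) and by 0.78 in the ANKRD52 KO (adjusted p = 0.032) in the authors' deposited tables, with implied levels of 1.63, 1.71, 10.4 and 0.992 CPM in the AGO2 KO, ANKRD52 KO, double KO and parental cells. COL12A1 was not called against parental cells, and was lower in the double KO than in the ANKRD52 KO (difference -0.53, adjusted p = 0.0134) in the approximate test.

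Other collagens split by chain. COL6A1 and COL6A2 are chains of type VI collagen, and their partner chain COL6A3 was not among the genes tested. COL6A1 was at 139, 187, 228 and 125 CPM in the AGO2 KO, ANKRD52 KO, double KO and parental cells. COL6A2 was at 86.7, 118, 123 and 109 CPM in the same order. COL6A1 rose by 0.59 in the ANKRD52 KO (adjusted p = 0.00112) and by 0.87 in the double KO (adjusted p = 1.42e-08) in the authors' deposited tables. COL6A2 was not called in either (0.11 and 0.17) and fell by 0.33 in the AGO2 KO (standard error 0.11, adjusted p = 0.0352) in the authors' deposited tables. It was the 1 member called lower in the AGO2 KO. COL13A1, a transmembrane collagen of cell contacts, rose by 1.65 in the ANKRD52 KO (adjusted p = 0.0202) and by 1.74 in the double KO (adjusted p = 0.00383) in the authors' deposited tables, and these knockouts differed by 0.09 (95% interval -0.95 to 1.13). COL27A1, a fibrillar collagen of cartilage, was called in opposite directions, at -0.42 in the ANKRD52 KO (adjusted p = 0.0352) and 0.65 in the double KO (adjusted p = 2.87e-05) in the authors' deposited tables, a difference of 1.07 (adjusted p = 2.54e-12) in the approximate test. The other fibrillar chains tested, COL1A1 and COL5A2, were not called.

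All 4 lysyl oxidases tested were called in the double KO, 3 higher and 1 lower, against 22.9% of all genes higher and 20.1% lower. LOXL4 had implied levels of 7.60 CPM in the AGO2 KO, 5.47 CPM in the ANKRD52 KO, 42.3 CPM in the double KO and 1.92 CPM in parental cells. It rose 3.97-fold in the AGO2 KO (log2 1.99, standard error 0.66, adjusted p = 0.0461) and 22.1-fold in the double KO (log2 4.47, adjusted p = 1.49e-08) in the authors' deposited tables, and stood at 1.52 in the ANKRD52 KO (adjusted p = 0.106). All 3 knockouts thus lay above parental cells, with wide errors. LOXL2, which also acts on type IV collagen, rose by 0.77 in the ANKRD52 KO (adjusted p = 0.0254) and by 0.69 in the double KO (adjusted p = 0.0182) in the authors' deposited tables. LOXL3 rose by 1.10 (adjusted p = 0.000153) and LOXL1, best known for elastic fibres, fell by 0.55 (adjusted p = 0.00127) in the double KO in the authors' deposited table.

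**Figure D4:**
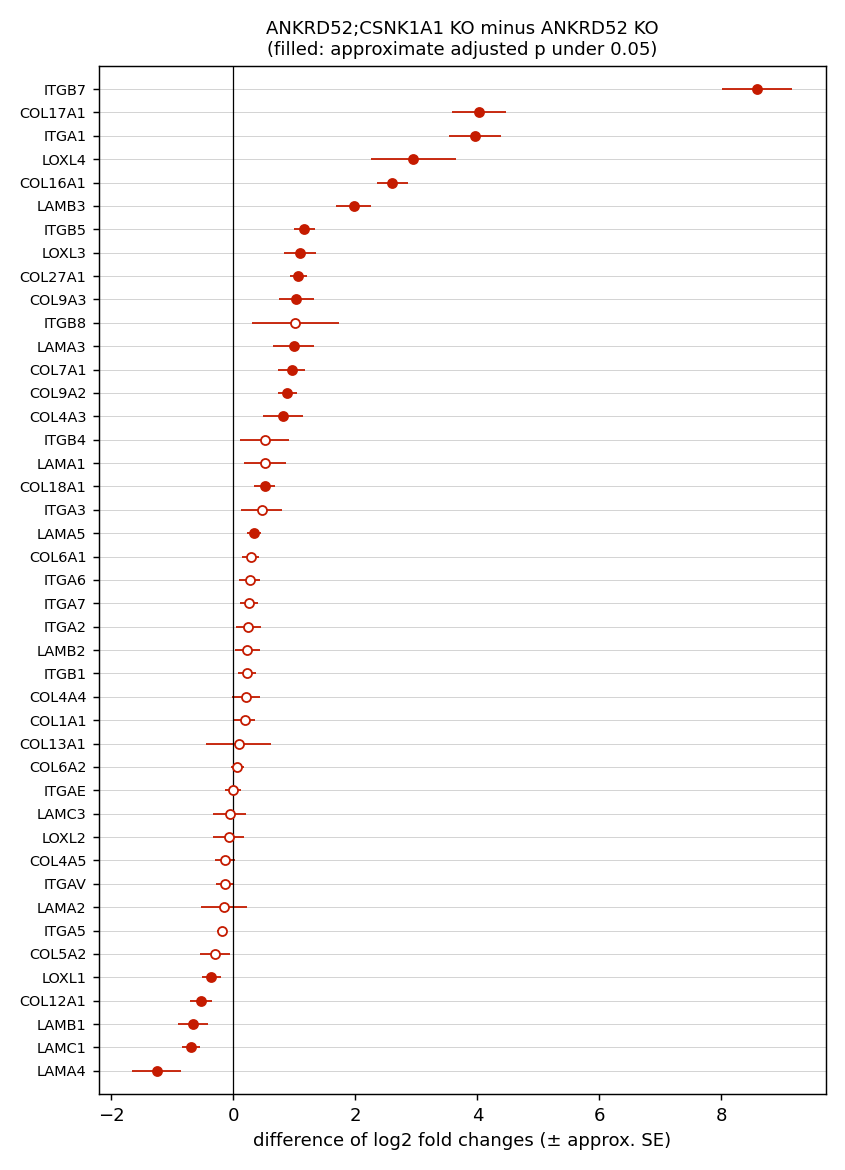
Difference of log2 fold changes, double KO minus ANKRD52 KO (x axis), by gene, with ± 1 approximate standard error and filled points at approximate adjusted p under 0.05. More filled points lie above 0 than below it, and they run from 8.58 for ITGB7 to -1.26 for LAMA4.

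Between the knockouts themselves, 17 of the 44 members tested were higher and 5 lower in the double KO than in the ANKRD52 KO in the approximate test, against 18.1% and 16.3% of all genes. The largest differences were those of ITGB7 (8.58), COL17A1 (4.03), ITGA1 (3.97, adjusted p = 1.91e-18), LOXL4 (2.95, adjusted p = 0.000161) and COL16A1 (2.61, adjusted p = 1e-21). The lower genes were LAMA4 (-1.26, adjusted p = 0.0073), LAMC1, LAMB1, COL12A1 and LOXL1 (-0.36, adjusted p = 0.0488). Between the ANKRD52 KO and the AGO2 KO, 6 members were higher and 6 lower, against 5.52% and 3.91% of all genes. Besides the laminins, COL17A1 and COL9A3 described above, COL6A1 (0.43), COL6A2 (0.45), ITGA5 (0.28) and ITGA7 (0.58) were higher and ITGB1 (-0.46) was lower in the ANKRD52 KO. Between the double KO and the AGO2 KO, 21 were higher and 3 lower, against 21.6% and 21.0% of all genes. The lower genes there were LAMA4, LAMC1 (-0.93) and COL12A1 (-0.72). With a t distribution, 14 of the 22 calls between the double KO and the ANKRD52 KO were made. The matching share of all genes is not given here.

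Sites for miR-29 were looked for because AGO2 acts in microRNA silencing and miR-29 is known to target matrix genes. The mature hsa-miR-29a-3p is given from RefSeq with its seed (bases 2 to 8) in capitals, and below it sites in 3' UTRs of the 47 genes (GENCODE 29, GRCh38) with the 7-base match to the seed in capitals. The genes shown are those called in the AGO2 KO that hold a site, with LAMC1, COL7A1 and COL16A1. COL7A1 holds 2 sites, and the one nearest the stop codon is shown.
hsa-miR-29a-3p: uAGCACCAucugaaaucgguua
COL4A5 site, chrX:108696476-108696498, plus strand: gccgtcaaTGGTGCTactatata
COL6A2 site, chr21:46132594-46132616, plus strand: cccgtccaTGGTGCTaagcgggc
COL7A1 site, chr3:48564315-48564337, minus strand: cctcccctTGGTGCTagaggctt
COL16A1 site, chr1:31652456-31652478, minus strand: ggttcctcTGGTGCTgcagccag
LOXL4 site, chr10:98248547-98248569, minus strand: catctaagTGGTGCTttgcaaat
ITGB1 site, chr10:32900726-32900748, minus strand: ttaatgtcTGGTGCTttctgtca
LAMC1 site, chr1:183144245-183144267, plus strand: tgacacacTGGTGCTattaatta
Of 46 members with a 3' UTR of at least 50 bases, 17 held TGGTGCT (37.0%), against 1682 of 11105 genes (15.1%). UTR length differed between the members with and without a site, with medians of 1392 and 464 bases, and its part in the site count was not tested. Over all members the median UTR was 990.5 bases, and over all genes 1106 bases.

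The 17 genes with a miR-29 site and the others had similar medians. The median log2 fold change was 0.19 with and 0.11 without a site in the AGO2 KO, 0.16 and 0.20 in the ANKRD52 KO, and 0.67 and 0.59 in the double KO, from the authors' deposited tables. Over all 11105 genes with a 3' UTR, medians with and without a site were 0.026 and 0.002 in the AGO2 KO. They were 0.064 and -0.002 in the ANKRD52 KO, and 0.089 and 2.7e-05 in the double KO. In the AGO2 KO, 3 of the 17 with a site rose (COL4A5, ITGB1 and LOXL4) and 1 fell (COL6A2). In the ANKRD52 KO 4 rose and 2 fell, and in the double KO 10 rose and 1 fell. Of the 29 without a site, 2 rose and 0 fell in the AGO2 KO, 7 rose and 1 fell in the ANKRD52 KO, and 15 rose and 2 fell in the double KO. Over all genes 6.10%, 13.7% and 43.0% were called in the AGO2, ANKRD52 and double knockouts. COL1A1, COL4A4, COL5A2 and LAMA2, each with a site, stayed uncalled in every knockout. Levels of miR-29 were not analysed here.

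**Figure D5:**
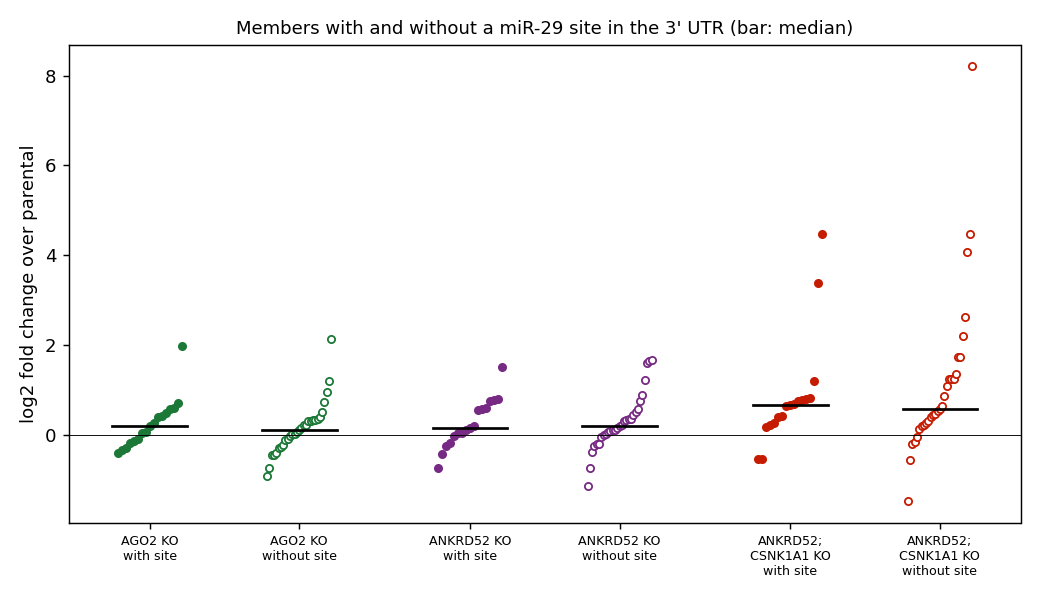
Log2 fold change over parental cells (y axis) of the members with (filled) and without (open) a miR-29 seed match in the 3' UTR, in each knockout; each point is 1 gene, spread sideways by rank, and black bars are medians. The clouds overlap in every knockout, with medians of 0.67 with and 0.59 without a site in the double KO.

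Other genes of matrix assembly and adhesion were counted in the same tables, where 3.38%, 7.62% and 22.9% of all genes rose and 2.72%, 6.04% and 20.1% fell in the AGO2, ANKRD52 and double knockouts. Of 15 enzymes and chaperones that modify and fold collagen, 1 rose and 1 fell in the AGO2 KO, 4 rose in the ANKRD52 KO, and 8 rose and 2 fell in the double KO. CRTAP, a subunit of the collagen prolyl 3-hydroxylase complex, rose in all 3 (0.29, 0.51 and 0.57) in the authors' deposited tables. P4HA2, a collagen prolyl 4-hydroxylase subunit, rose by 1.12 in the double KO (adjusted p = 1.35e-13), and SERPINH1, the collagen chaperone, rose by 0.72 in the ANKRD52 KO (adjusted p = 0.00108) in the authors' deposited tables. Of 7 procollagen processing genes, 3 rose and 1 fell in the double KO, where ADAMTS14, a procollagen N-proteinase, rose by 2.73 and TLL1, a C-proteinase, fell by 2.84 (log2) in the authors' deposited table. Among 10 matrix proteases and inhibitors, none was called in the ANKRD52 KO by the authors' edgeR test (1 at unadjusted p under 0.05) and 6 rose in the double KO, with TIMP3 at 1.49 and MMP14 at 1.63.

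Of 11 other matrix glycoproteins, 5 rose in the ANKRD52 KO and 9 in the double KO, against 7.62% and 22.9% of all genes, and none fell in either. SPARC, a collagen-binding matrix protein, had implied levels of 1.11 CPM in the AGO2 KO, 84.7 CPM in the ANKRD52 KO, 92.9 CPM in the double KO and 0.323 CPM in parental cells. Its log2 fold changes in the ANKRD52 KO (8.04, adjusted p = 4.11e-10) and the double KO (8.17, adjusted p = 8.72e-12) were past the threshold in the authors' deposited tables. SPARC thus stood at similar levels in both knockouts of ANKRD52, far above the AGO2 KO and parental cells. CTGF, a matricellular growth factor, rose in all 3 (1.22, 1.53 and 2.94) in the authors' deposited tables. Of 18 focal adhesion adaptors, 1, 3 and 9 rose in the AGO2, ANKRD52 and double knockouts, and 1 (PARVB) fell in the last. The adaptors' shares called were 5.56%, 16.7% and 55.6%, against 6.10%, 13.7% and 43.0% of all genes, so the first and second lay near the background. ACTN4 and ACTN1, the actinins that cross-link actin, rose by 1.44 and 1.30 in the double KO in the authors' deposited table. Of 6 matrix receptors that are not integrins, none was called in the AGO2 KO or the ANKRD52 KO by the authors' edgeR test (1 and 3 at unadjusted p under 0.05), and in the double KO 5 rose and CD44, the hyaluronan receptor, fell by 1.49 (adjusted p = 1.65e-14) in the authors' deposited table. BCAM, a receptor for laminin alpha5, rose by 1.31 there, beside the rise of LAMA5.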

How the data were processed

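Per the labels' protocols, libraries were stranded and read for 75 cycles. Tools named in the submitters' processing notes, with no role given, are edgeR 3.8.6, featureCounts 1.4.6 and TopHat2 2.0.12, with build hg19. Whether strand was used in counting is not given in the sources used here. The 3 files are the authors' edgeR results, per the file headers, 1 per knockout. For each gene the authors deposited log2 values (the fold change over parental cells and the mean CPM), the likelihood ratio score of their test, its p-value and an adjusted p-value. A recalculation from the likelihood ratios (chi-square with 1 degree of freedom, Benjamini-Hochberg over 12756 genes) gave the same p-values.

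Members were found by symbol pattern. Counts cover all members, of which 1 is not reported singly here. They, the 25 gene lists and the motifs were chosen with earlier results of these data known. Named are the 10 called members with the largest change and the 4 with the smallest p per comparison, the member of each role with the smallest p, their partners, the 5 largest differences each way between knockouts, and up to 4 genes of each other list.

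Dividing the size of a log2 fold change by the root of its likelihood ratio gave the approximate standard error. Knockouts were compared by subtracting fold changes, taking the average of both squared errors as variance, with a normal test. P-values were adjusted (Benjamini-Hochberg) over the 11876 genes at a mean log2 CPM of 1 or more, which leaves out COL4A6, ITGA2B and ITGA9. Implied levels assume 4 equal groups. A group with 3 reads lies at 0.0345 CPM if the prior count was 0.125, and no fold is given from below that. Exon lengths and 3' UTRs are from GENCODE 29, all 47 members matching by name, and promoters from RefSeq (GRCh38.p14). Alternatives were other thresholds, filters, reference distributions, variances and centring. Work used Python 3.11.15, numpy 2.4.6, pandas 2.3.3, scipy 1.17.1 and matplotlib 3.10.9.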

Additional observations from a re-analysis of the deposited data

How the results depend on the processing

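Over the alternatives, 388 values of named genes kept their side of the threshold, 113 lost the call and 5 gained it. Of the 388, 48 came from centring, which kept the same adjusted p and so could not change a call. Counts of called members depended on the threshold and on the distribution of the test. Shares of all genes called under each alternative are not given here. A change in the count of members can therefore not be told from one over all genes. In the AGO2 KO, 6 members were called, and 2 at an adjusted p of 0.01, 12 at 0.1, 3 with a fold minimum of log2 1, 1 with Holm's adjustment and 0 under the F distribution (1 and 8 degrees of freedom) (15 at unadjusted p under 0.05). In the ANKRD52 KO, 14 became 6 at 0.01, 5 with the fold minimum, 4 with Holm's adjustment and 0 with the F distribution (17 at unadjusted p under 0.05). In the double KO, 29 became 15 with the fold minimum and 11 with Holm's adjustment, and the median of 0.64 became a mean of 1.05. Of 22 calls between the double KO and the ANKRD52 KO, 13 were made with the sum of both variances and 14 with a t distribution with 8 degrees of freedom. Of 12 between the ANKRD52 KO and the AGO2 KO, these gave 1 and 0 (13 at unadjusted p under 0.05 with the t distribution). The variance used assumes that parental libraries vary like those of the knockouts, and 8 degrees of freedom are those of 12 libraries in 4 groups. Expression filters moved no count past 1.5 times. Centring could change only the direction of a call, so an unchanged count there says nothing. No replicate could be left out, since the tables hold no values of single libraries, and depth is unknown, so a call missed at a low level may reflect few reads. No paired analysis was possible because the result tables hold no columns of single replicates.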

Other observations

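Matches to 7 other microRNA families were counted in the 3' UTRs of the same 46 members. Let-7 matches were in 15.2% of members and 10.2% of genes, and miR-21 matches in 10.9% and 8.67%. Matches to miR-200b/c were in 13.0% and 17.7%, to miR-141/200a in 17.4% and 19.4%, to miR-15/16 in 15.2% and 22.5%, to miR-17 in 13.0% and 22.8%, and to miR-19 in 6.52% and 14.1%. Of the 8 families, miR-29 had the highest share among members. Of the 6 members with a miR-200b/c match, 4 rose in the double KO (COL4A3, COL9A2, ITGA1 and ITGA2) and 1 fell (LAMC1). ITGA9 was not called. Over all genes 22.9% rose and 20.1% fell there.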
